A study of Mus musculus with 4 samples.

Results

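Sites of open chromatin were described around 6 genes known as classical estrogen targets: Rara, Igfbp4, Ccnd1, Myc, Xbp1 and Pgr. Their windows in the mouse genome build mm9 were chr11:98740000-98960000 (Rara and Igfbp4), chr7:152060000-152180000 (Ccnd1), chr15:61760000-61900000 (Myc), chr11:5370000-5480000 (Xbp1) and chr9:8850000-9020000 (Pgr). Every hypersensitive region that overlaps 1 of these 5 windows is a member, and overlapping or touching regions of different libraries were joined into 1 site. This gave 66 sites of 103288 in all, built from 193 of the 202687 listed regions. The data are DNase-seq, in which the nuclease DNase I cuts DNA that is not covered by nucleosomes, from 7438 cells, a mouse mammary line. In these cells a tet-regulated promoter drives the receptors GFP-GR (glucocorticoid receptor, tagged with GFP) and Cherry-ER (estrogen receptor, tagged with Cherry), so that in all 4 conditions, the untreated one included, tetracycline had been withdrawn and both tagged receptors were induced. Cells received no hormone, 100 nM dexamethasone (Dex, a GR agonist), 100 nM estradiol (E2, the ligand of ER), or 100 nM of each (Dex+E2), for 30 min. Each condition has 1 library. All values therefore compare single libraries, with no test of a treatment and no replicate check. Whether the line is 1 clone is not given in the sources used here, and markers of mammary cells were not analysed here, since no annotation of mm9 was at hand.

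When estradiol binds ER, the receptor attaches to estrogen response elements, often in enhancers far from the gene, and recruits coactivators and chromatin remodellers, so that DNase I cuts more at some of these places. ER can also act without such an element, through other DNA-bound factors such as AP-1 or, at GC boxes, Sp1. In breast epithelium Pgr (progesterone receptor) and Rara (retinoic acid receptor alpha) are receptors under estrogen control, Igfbp4 is a secreted protein that binds insulin-like growth factors, Ccnd1 (cyclin D1) and Myc drive entry into the cell cycle, and Xbp1 is a transcription factor of the unfolded protein response. No value here measures expression of these genes. In RefSeq's gene order (GRCm38.p6) the coding genes Gm46294, Gjd3 and Top2a lie between Rara and Igfbp4, so the sites of that window cannot be assigned to 1 of the named genes.

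Promoter sequences of some of the estrogen targets are shown, with the GC boxes close to their starts. RefSeq's promoter table (GRCm38.p6) matched 4 of the 6 genes, Rara, Igfbp4, Xbp1 and Pgr, with 7 start sites in all. The 250 bases before each start were searched on both strands for 2 inverted GGTCA half-sites separated by 3 bases (the estrogen response element), for GNACA and TGTNC separated by 3 bases (the glucocorticoid response element), for TGANTCA (the AP-1 site) and for GGGCGG (the GC box, a motif added after the data were seen). The estrogen element was in 0 of the 7 and in 0.0639% of all 32851 promoters, the glucocorticoid element in 0 of 7 and in 0.387%, and the AP-1 site in 0 of 7 and in 6.75%. At these shares 0 of 7 is no result about the estrogen targets. GC boxes were in 4 of the 7 and in 32.7% of all. Of these 4 starts 3 are of Rara, 2 of them with overlapping promoters, and 1 is of Pgr, while Xbp1 and Igfbp4 had 0. With so few genes, 4 of 7 is no result about the estrogen targets either. Shown are the first of 4 Rara starts, with 4 GC boxes, the Pgr start with 1, and the Xbp1 start with 0, all on the plus strand, 5′ to 3′, with GC boxes of either strand in capitals. These letters are of GRCm38.p6, and the mm9 sites were not placed on them.
Rara: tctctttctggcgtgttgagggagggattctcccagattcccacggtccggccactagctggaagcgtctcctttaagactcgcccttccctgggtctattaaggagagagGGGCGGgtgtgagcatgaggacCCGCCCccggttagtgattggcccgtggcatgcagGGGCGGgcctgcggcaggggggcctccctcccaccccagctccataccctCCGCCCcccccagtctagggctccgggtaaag
Pgr: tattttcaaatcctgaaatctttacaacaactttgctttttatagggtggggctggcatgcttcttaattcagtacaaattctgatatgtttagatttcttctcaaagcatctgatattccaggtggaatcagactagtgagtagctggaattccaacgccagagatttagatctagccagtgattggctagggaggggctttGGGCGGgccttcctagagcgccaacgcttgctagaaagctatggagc
Xbp1: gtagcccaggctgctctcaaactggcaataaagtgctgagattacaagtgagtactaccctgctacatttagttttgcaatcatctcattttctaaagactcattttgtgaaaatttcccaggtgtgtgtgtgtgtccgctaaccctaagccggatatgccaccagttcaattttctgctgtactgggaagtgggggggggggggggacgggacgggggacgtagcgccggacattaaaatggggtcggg

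The windows of Rara/Igfbp4, Ccnd1, Myc and Xbp1 held listed sites in every condition, and the Pgr window held few. Of the 66 sites, 28 (42.4%) were in all 4 lists and 17 (25.8%) in 1 list. Among all 103288 sites these shares were 20.03% and 58.8%. The untreated list held 55 of the sites, the Dex list 41, the E2 list 39 and the Dex+E2 list 44. Counted as listed regions before joining these were 56, 46, 43 and 48, against totals of 65879, 51251, 35496 and 50061 listed regions. Absence of a site from a list means that no region there passed the authors' threshold, not that its chromatin was closed. The Rara/Igfbp4 window (220 kb) held 23 sites, of which 12 were in all lists. The Ccnd1 window (120 kb) held 18 sites with 8 in all lists, the Myc window (140 kb) 11 with 5, the Xbp1 window (110 kb) 9 with 3, and the Pgr window (170 kb) 5 with 0. Listed regions of the Pgr window covered 328 bp in untreated cells, 0 with Dex, 1295 bp with E2 and 1537 bp with Dex+E2, while those of the Rara/Igfbp4 window covered 18823, 14628, 9025 and 13550 bp.

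**Figure D1:**
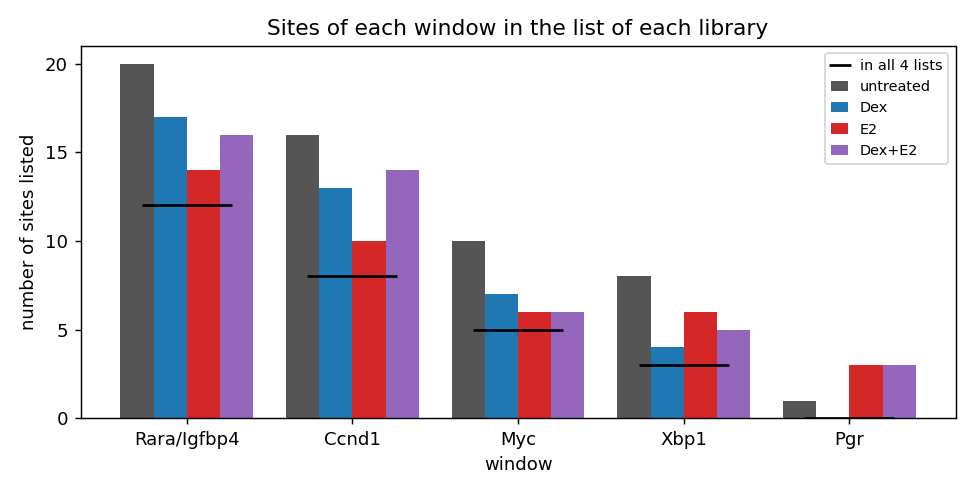
Number of sites (y axis) of each window (x axis) found in the list of each library (bars), with the number found in all 4 lists (black line). The untreated list holds the most sites in 4 windows, up to 20 in the Rara/Igfbp4 window, and in the Pgr window the E2 and Dex+E2 lists hold 3 sites each, the untreated list 1 and the Dex list 0.

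Each site has 2 deposited values per library, the maximum (MaxD) and the average (AveD) tag density, where a tag is 1 sequenced DNA end. AveD belongs to each library's own listed region, so at 1 site it can span unlike lengths. MaxD comes in whole steps, taken here as 1 tag, worth 0.255 untreated, 0.245 with Dex, 0.20 with E2 and 0.227 with Dex+E2. If all libraries were scaled to 1 total, which is not stated, the Dex library was 1.04 times, the E2 library 1.28 times and the Dex+E2 library 1.12 times as deep as the untreated library. Over the 20687 sites of the genome found in all 4 lists the median MaxD was 30.1, 14.7, 10.2 and 15.4 in the same order. The untreated library thus stands apart from the hormone libraries over the genome, and its part in the results below was not tested. Ratios are therefore given relative to these library medians, with exact 95% intervals from the tags of both summits, which cover counting error only. The 28 estrogen target sites in all lists had medians of 38.1, 19.8, 10.5 and 14.2. MaxD as deposited was highest in untreated cells at 27 of them and lowest with E2 at 26. The medians of the 20687 sites were likewise highest untreated and lowest with E2, so this order is not particular to the estrogen targets.

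In the Rara/Igfbp4 window the densest site of all 66 was chr11:98885137-98886051 (site 14, counted along the window). Its MaxD was 104 (93.7 to 114) untreated, 46.8 (40.4 to 53.9) with Dex, 39.8 (34.5 to 45.7) with E2 and 69.0 (61.4 to 77.2) with Dex+E2, and its AveD 26.0, 12.2, 10.3 and 19.5. Relative to the medians it stood at 3.44, 3.18, 3.90 and 4.47, so that both libraries with E2 were above both without it, by 1.13-fold (0.952 to 1.35) for E2 over untreated and 1.40-fold (1.17 to 1.69) for Dex+E2 over Dex. The neighbouring sites 2 and 3, chr11:98790832-98793758 and chr11:98793949-98795213, both reached a MaxD of 82.1 in untreated cells. Site 2 had 44.6 with Dex, 28.2 with E2 and 47.9 with Dex+E2 (AveD 12.1, 5.74, 6.08 and 9.12), and site 3 had 44.1, 26.0 and 39.9 (AveD 18.2, 10.2, 7.0 and 10.3). None of their scaled ratios had an interval that excluded 1: the values ran from 0.863 for Dex+E2 over Dex at site 3 to 1.14 for Dex+E2 over untreated at site 2.

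Site 7 of this window, chr11:98803010-98804678, was the one with the lowest ratio of Dex+E2 to Dex among the 28 sites. Its MaxD was 38.3 untreated, 32.3 with Dex, 9.40 with E2 and 17.2 with Dex+E2 (AveD 7.30, 5.66, 2.06 and 3.37). Relative to the medians the Dex library was the high one, 1.73-fold (1.36 to 2.20) over untreated, and Dex+E2 was 0.508-fold (0.378 to 0.679) of Dex. As deposited MaxD with Dex was 0.845-fold of untreated, so the direction of that rise depends on the scaling. Site 21, chr11:98937806-98938855, had 35.2, 20.3, 10.6 and 10.9 (AveD 6.81, 3.98, 2.13 and 2.14). There Dex+E2 was the low library, at 0.510-fold (0.350 to 0.737) of Dex and 0.604-fold (0.425 to 0.844) of untreated. By AveD, relative to the medians of AveD, the former value is −1.07 on the log2 scale, past 2-fold. Site 9, chr11:98812566-98813487, had 62.7, 22.0, 25.0 and 31.8 (AveD 14.6, 4.12, 6.69 and 7.34). Here Dex was low, at 0.720-fold (0.559 to 0.920) of untreated, and Dex+E2 was 1.37-fold (1.05 to 1.81) of Dex.

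The Rara/Igfbp4 window held 6 more sites in all lists. Site 1, chr11:98768653-98769399, had a MaxD of 44.6 untreated, 19.6 with Dex, 18.0 with E2 and 24.7 with Dex+E2 (AveD 14.2, 5.87, 5.84 and 7.30). Site 11, chr11:98820598-98821335, had 30.9, 14.9, 9.40 and 12.7 (AveD 7.85, 3.50, 3.02 and 3.67). Site 12, chr11:98824702-98825577, had 27.0, 11.3, 9.60 and 9.98 (AveD 5.81, 2.48, 2.41 and 2.50). All intervals on the ratios of these 3 sites included 1. Site 13, chr11:98827796-98828644, had 33.7, 10.0, 7.40 and 12.3 (AveD 7.16, 2.36, 1.49 and 2.79) and was low in each hormone library, at 0.611-fold (0.419 to 0.873) for Dex, 0.649-fold (0.438 to 0.940) for E2 and 0.710-fold (0.507 to 0.981) for Dex+E2 over untreated. Site 16, chr11:98900963-98902539, had 23.7, 12.5, 9.0 and 13.8 (AveD 4.45, 2.81, 2.38 and 2.90). Site 20, chr11:98927167-98927847, had 23.0, 10.0, 7.40 and 12.7 (AveD 7.71, 2.88, 2.52 and 3.30). Both followed the library medians within counting error.

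A further 11 sites of this window were missing from at least 1 list. Site 6, chr11:98801319-98801881, was listed only with E2, at a MaxD of 9.80 with E2 and 10.4 with Dex+E2 (AveD 2.55 and 2.63). Site 10, chr11:98815598-98816250, was listed only with Dex, at 11.5 with Dex and 10.4 with Dex+E2 (AveD 3.01 and 2.83). Sites 4, 22 and 23 were in the untreated and Dex lists, at 13.8 and 7.59 (chr11:98797314-98798016, AveD 3.08 and 1.90), 11.7 and 7.59 (chr11:98942186-98943477, AveD 2.59 and 1.90) and 8.42 and 6.61 (AveD 1.44 and 1.52). The E2 list alone lacked site 5, chr11:98798613-98799250, with 18.4 untreated, 9.06 with Dex and 9.30 with Dex+E2 (AveD 6.37, 2.62 and 3.21). Site 18, chr11:98908260-98908863, had 16.6 untreated and 7.94 with Dex+E2 (AveD 4.02 and 2.66). Sites listed once were sites 8, 17 and 19 in untreated cells, at 9.95, 10.97 (chr11:98903944-98904736) and 8.16 (AveD 1.58, 2.26 and 1.94), and site 15 with E2, at 6.60 (AveD 1.52).

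The Pgr window was the only one without a site in all lists, and its densest site, chr9:8937602-8938227 (site 2), reached a MaxD of 7.49 (5.15 to 10.5) with Dex+E2 and 4.20 (2.60 to 6.42) with E2. Its AveD was 1.88 and 1.23. A further site found in both E2 lists and in no other was site 5, chr9:8970168-8970795, with 6.35 with Dex+E2 and 5.40 with E2 (AveD 2.04 and 1.57). The other 3 sites were each in 1 list: site 1 at 4.99 with Dex+E2 (AveD 1.0), site 3 at 4.40 with E2 (AveD 1.2) and site 4 at 4.85 untreated (AveD 1.54). The library of Dex alone had no listed region there. These are summits of 19 to 33 tags. With site 6 of the Rara/Igfbp4 window, 3 of the 66 estrogen target sites (4.55%) were in the E2 and Dex+E2 lists only, against 1.32% of all sites. In the Dex and Dex+E2 lists only was 1 of 66 (1.52%), against 1.92% of all sites. These counts are too small to call the windows different from the rest.

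**Figure D2:**
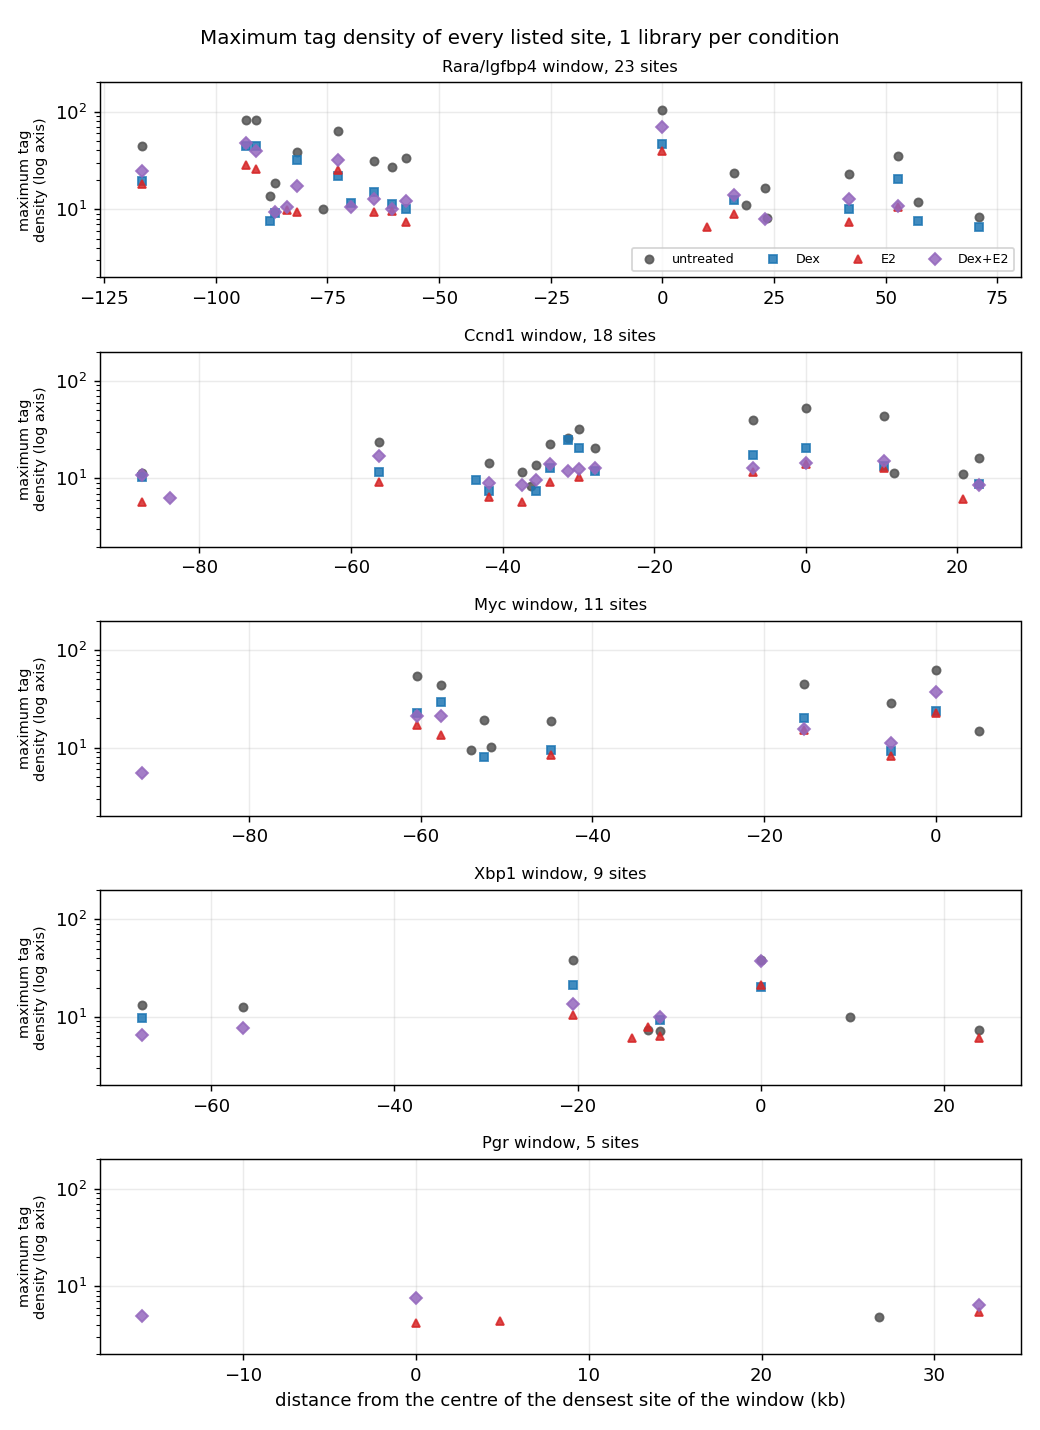
MaxD (y axis, log scale) of every site of the 5 windows against the distance in kb from the centre of the densest site of its window (x axis), with 1 symbol per library in which the site was listed. Most sites have the untreated library on top, the Xbp1 site at 0 kb has Dex+E2 (37.0) beside untreated (38.3), and no Pgr value exceeds 7.49.

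In the Ccnd1 window the densest sites were 13, 14 and 15, at all of which Dex+E2 was below untreated relative to the medians. Site 14, chr7:152156657-152157810, had a MaxD of 53.1 untreated, 20.6 with Dex, 14.2 with E2 and 14.3 with Dex+E2 (AveD 10.1, 3.89, 2.93 and 3.05). Dex+E2 was 0.526-fold (0.390 to 0.700) of untreated, 0.662-fold (0.470 to 0.928) of Dex and 0.665-fold (0.466 to 0.948) of E2, the lowest such values of the 28 sites over untreated and over E2. Site 15, chr7:152167041-152167958, had 44.1, 13.5, 12.8 and 15.2 (AveD 9.53, 2.92, 3.01 and 3.96). It was low with Dex, at 0.625-fold (0.453 to 0.851) of untreated, and with Dex+E2, at 0.672-fold (0.499 to 0.896). Site 13, chr7:152149684-152150757, had 39.5, 17.4, 11.6 and 12.7 (AveD 10.2, 3.50, 3.29 and 3.25), and Dex+E2 was 0.627-fold (0.453 to 0.856) of untreated.

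A cluster of 6 sites of the Ccnd1 window lay between chr7:152120758 and chr7:152129785. Site 11, chr7:152126747-152127947, had a MaxD of 31.9 untreated, 20.6 with Dex, 10.4 with E2 and 12.5 with Dex+E2 (AveD 5.44, 3.52, 2.26 and 3.32). Next to it, site 10, chr7:152125049-152126643, had 26.0 untreated, 24.7 with Dex and 12.0 with Dex+E2 (AveD 4.65, 3.98 and 2.35) and was not listed with E2. At both the Dex library was the highest relative to the medians: site 10 was 1.95-fold (1.46 to 2.59) over untreated, and Dex+E2 was 0.463-fold (0.326 to 0.652) of Dex at site 10 and 0.578-fold (0.404 to 0.821) at site 11. As deposited MaxD with Dex was 0.951-fold of untreated at site 10 and 0.645-fold at site 11, so the direction over untreated depends on the scaling. Site 9, chr7:152122923-152124077, had 22.7, 12.7, 9.20 and 14.1 in the 4 libraries (AveD 4.24, 2.57, 2.39 and 3.31), with all intervals including 1. Site 12, chr7:152129063-152129785, had 20.4 untreated, 12.0 with Dex and 12.9 with Dex+E2 (AveD 5.16, 3.10 and 3.21), and site 8, chr7:152121366-152122018, had 13.8, 7.35 and 9.53 (AveD 3.44, 1.90 and 3.52). Neither was listed with E2. Site 7 was listed in untreated cells only, at 8.42 (AveD 2.14).

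The remaining 9 Ccnd1 sites lay outside that cluster. Site 3, chr7:152100466-152101469, had a MaxD of 23.7 untreated, 11.5 with Dex, 9.20 with E2 and 16.8 with Dex+E2 (AveD 4.81, 2.48, 2.51 and 3.70), with Dex+E2 the highest relative to the medians. Site 1, chr7:152069004-152070317, had 11.5, 10.3, 5.80 and 10.9 (AveD 2.79, 2.50, 1.13 and 2.45), which relative to the medians is 1.84-fold (1.18 to 2.86) for Dex and 1.85-fold (1.21 to 2.84) for Dex+E2 over untreated. As deposited these ratios were 0.896-fold and 0.949-fold, so their direction depends on the scaling. Site 5, chr7:152114881-152115921, had 14.5, 7.35, 6.40 and 9.07 (AveD 2.93, 1.42, 1.59 and 2.08) and followed the medians. Site 18, chr7:152179400-152180656, which crosses the window's edge, had 16.3 untreated, 8.82 with Dex and 8.62 with Dex+E2 (AveD 3.54, 2.14 and 2.61). Site 6, chr7:152119316-152120166, had 11.7 untreated, 5.80 with E2 and 8.62 with Dex+E2 (AveD 2.29, 1.44 and 1.98), and site 17, chr7:152177689-152178202, had 11.2 untreated and 6.20 with E2 (AveD 2.72 and 2.02). In 1 list each were site 16, chr7:152168538-152169150, at 11.5 untreated (AveD 3.17), site 4 at 9.55 with Dex (AveD 2.13) and site 2 at 6.35 with Dex+E2 (AveD 1.56).

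In the Myc window the densest site was chr15:61875005-61876011 (site 10), with a MaxD of 62.5 untreated, 23.8 with Dex, 22.4 with E2 and 37.4 with Dex+E2 (AveD 15.6, 5.53, 5.88 and 8.47). Dex was the low library there, at 0.779-fold (0.609 to 0.989) of untreated, and Dex+E2 was 1.5-fold (1.16 to 1.95) of Dex. Site 2, chr15:61814618-61815584, had 54.8, 22.8, 17.2 and 21.3 (AveD 11.8, 4.37, 3.87 and 4.89). Site 3, chr15:61815634-61820084, is the longest of the 66 and had 43.9, 29.4, 13.6 and 21.1 (AveD 6.53, 4.48, 3.27 and 3.63). These neighbours differed in the library with Dex alone, which was 1.37-fold (1.08 to 1.74) of untreated at site 3 and 0.851-fold (0.660 to 1.09) at site 2, and Dex+E2 was 0.684-fold (0.516 to 0.904) of Dex at site 3. As deposited MaxD with Dex was 0.670-fold of untreated at site 3, so the direction there depends on the scaling. Sites 2 and 3 become 1 site when regions within 150 bp are joined. Site 3 holds 1, 2, 3 and 3 listed regions in the 4 libraries, so its values can come from unlike summits. Site 8, chr15:61859702-61860600, had 45.4, 20.1, 15.0 and 15.7 (AveD 11.05, 5.01, 4.35 and 4.06), and Dex+E2 was the low library, at 0.673-fold (0.502 to 0.893) of untreated and 0.690-fold (0.490 to 0.970) of E2. Site 9, chr15:61869368-61871191, had 28.8, 9.31, 8.20 and 11.1 (AveD 5.07, 1.94, 2.27 and 2.67), with Dex at 0.661-fold (0.445 to 0.963) of untreated.

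All but 1 of the 6 Myc sites missing from a list were in the untreated list. Site 5, chr15:61822426-61823372, had a MaxD of 19.4 untreated and 8.08 with Dex (AveD 3.57 and 1.70). Site 7, chr15:61830328-61831017, had 18.6 untreated, 9.55 with Dex and 8.40 with E2 (AveD 4.19, 2.03 and 2.26) and was missing with Dex+E2 only. Listed in untreated cells alone were site 11, chr15:61880166-61880815, at 14.8 (AveD 3.48), site 6, chr15:61823458-61823979, at 10.2 (AveD 2.31), and site 4 at 9.44 (AveD 2.34). Site 1 was listed with Dex+E2 alone, at 5.44 (AveD 1.55).

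The Xbp1 window held the only one of the 28 estrogen target sites past 1.5-fold upward in each of the comparisons that isolate E2. Among the 20687 sites of the genome this share was 3.29%, so 1 of 28 is near the share of all sites. Site 7, chr11:5441128-5442702, had a MaxD of 38.3 (32.4 to 44.9) untreated, 20.3 (16.2 to 25.2) with Dex, 21.2 (17.4 to 25.6) with E2 and 37.0 (31.5 to 43.1) with Dex+E2, and an AveD of 7.10, 4.09, 6.94 and 10.2. Both E2 libraries were above both others relative to the medians: the site stood at 1.27 untreated, 1.38 with Dex, 2.08 with E2 and 2.40 with Dex+E2. E2 was 1.64-fold (1.26 to 2.11) of untreated and Dex+E2 1.73-fold (1.32 to 2.29) of Dex, while Dex over untreated was 1.09-fold (0.822 to 1.43) and Dex+E2 over E2 1.15-fold (0.898 to 1.49). By AveD, which can span unlike lengths, the log2 values of the first pair were 1.30 and 1.14, both past 2-fold. The part of region length in this was not tested. As deposited, MaxD with E2 was 0.554-fold of untreated and MaxD with Dex+E2 1.82-fold of Dex, so the direction of the former depends on the scaling. In the Dex library this site consists of 2 listed regions.

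The other Xbp1 sites differed from this pattern. Site 3, chr11:5420409-5422491, had a MaxD of 38.0 untreated, 21.3 with Dex, 10.4 with E2 and 13.6 with Dex+E2 (AveD 7.39, 4.19, 2.15 and 2.63). Dex+E2 was the low library, at 0.609-fold (0.430 to 0.855) of Dex and 0.699-fold (0.509 to 0.949) of untreated. Site 6, chr11:5430431-5431324, had 7.14, 9.31, 6.40 and 9.98 (AveD 1.84, 1.85, 1.47 and 2.03). As deposited the hormone libraries stood at 1.30-fold, 0.896-fold and 1.40-fold of untreated, and division by the medians put all 3 hormone libraries above 2-fold: 2.67-fold (1.60 to 4.52) for Dex, 2.64-fold (1.54 to 4.56) for E2 and 2.73-fold (1.66 to 4.55) for Dex+E2 over untreated. Such sites, with every hormone library at 0.8 or more of the untreated value as deposited, make up 876 of the 20687 (4.23%), and this is the only one of the 28.

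The 6 Xbp1 sites missing from a list were weak. Site 1, chr11:5374081-5374702, had a MaxD of 13.3 untreated, 9.80 with Dex and 6.58 with Dex+E2 (AveD 4.48, 2.70 and 1.11), and site 2, chr11:5385088-5385786, had 12.5 untreated and 7.71 with Dex+E2 (AveD 2.83 and 2.21). Sites 5 and 9 were in the untreated and E2 lists only, at 7.40 and 7.80 (AveD 1.76 and 1.62) and at 7.40 and 6.0 (AveD 1.65 and 0.857). Division by the medians put the library of E2 alone at 3.11-fold (1.88 to 5.22) and 2.39-fold (1.39 to 4.13) of untreated. As deposited these ratios were 1.05-fold and 0.811-fold, so the rise depends on the scaling. Neither site was listed with Dex+E2. Site 4 was listed with E2 alone, at 6.0 (AveD 1.14), and site 8 in untreated cells alone, at 9.95 (AveD 2.41).

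**Figure D3:**
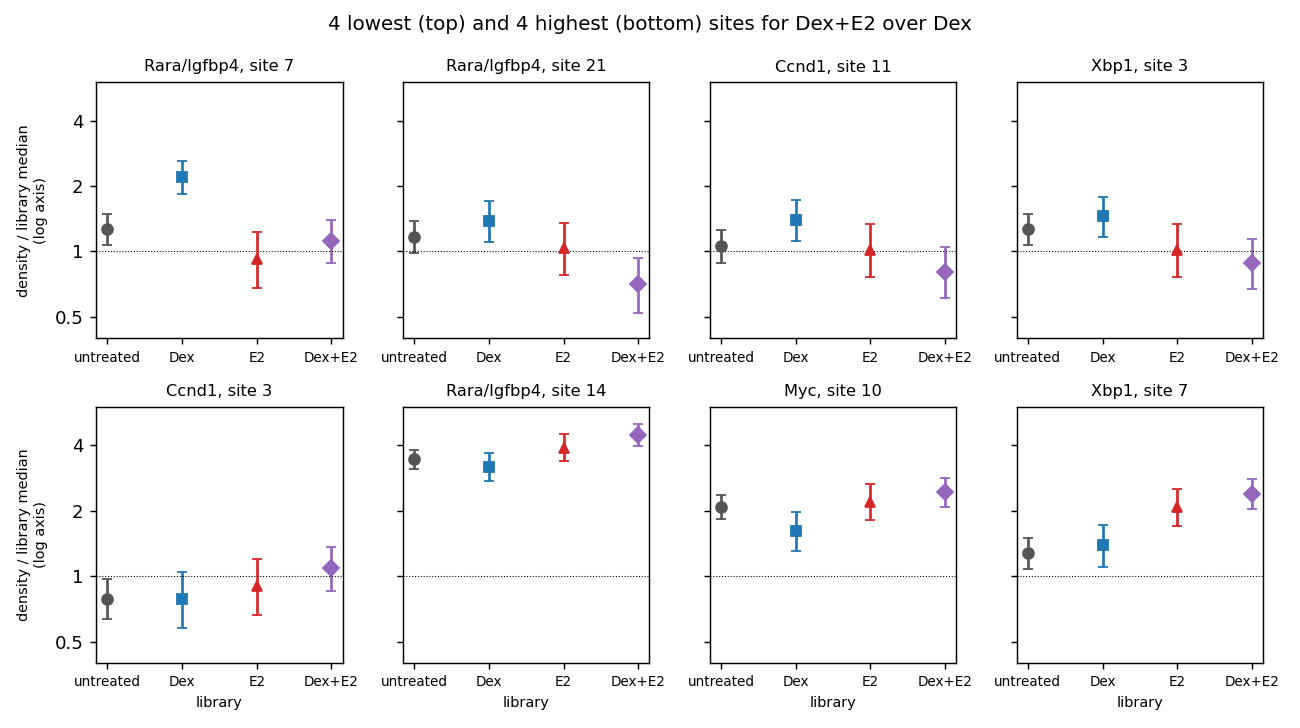
MaxD divided by the library median (y axis, log scale) in the 4 libraries (x axis) at the 4 sites with the lowest (top) and the 4 with the highest (bottom) ratio of Dex+E2 to Dex among the 28 sites in all lists, with exact 95% Poisson intervals of the tags as bars. The top sites have their highest value in the Dex library, and at Xbp1 site 7 the E2 (2.08) and Dex+E2 (2.40) libraries lie above the other libraries.

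Sites missing from a list do not enter the counts given next. Past 2-fold relative to the medians among them were Ccnd1 site 10, at 0.463-fold for Dex+E2 over Dex, and Xbp1 sites 5 and 9. The latter stood at 3.11-fold and 2.39-fold for E2 over untreated. Over the 28 sites in all 4 lists, the median site followed the library medians. For Dex over untreated the median log2 ratio was −0.01 (range −0.71 to 1.42), and 1 site was at least 2-fold higher and 0 lower, against 6.69% and 0.595% of the 20687 sites. For E2 over untreated the median was −0.05 (−0.62 to 1.40), with 1 site higher and 0 lower, against 7.89% and 0.445%. For Dex+E2 over untreated it was −0.08 (−0.93 to 1.45), with 1 higher and 0 lower, against 7.19% and 1.58%. The 1 site is the same in these comparisons, Xbp1 site 6, and they share the untreated library. For Dex+E2 over Dex the median was 0.03 (−0.98 to 0.79), with 0 higher and 0 lower, against 1.84% and 0.889%, and for Dex+E2 over E2 −0.04 (−0.59 to 0.31), with 0 and 0, against 1.78% and 1.04%. Medians over the 20687 sites lay between −0.03 and 0.01 in all 5 comparisons.

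Counting intervals, which do not include the spread between libraries, excluded 1 at many sites of the genome. For Dex over untreated the interval excluded 1 at 9 of the 28 sites, against 30.1% of the 20687, and for Dex+E2 over untreated at 13, against 35.7%. For Dex+E2 over Dex there were 10, against 23.0%. E2 over untreated gave 3, against 30.2%, and Dex+E2 over E2 gave 2, against 19.2%. An interval that excludes 1 at a single site says at most that the 2 libraries differ there, not the treatments.

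The comparison of Dex+E2 with Dex and that of E2 with untreated cells both isolate E2 and share no library. Of the 28 sites 12 were above 0 in both on the log2 scale and 11 below 0 in both, against 28.8% and 30.3% of the 20687 sites. At 1.5-fold, Xbp1 site 7 was the 1 site higher in both, against 3.29% of all, and 0 were lower in both, against 1.40%. At 2-fold by MaxD 0 of 28 were higher in both, against 0.996% of all. The comparison of Dex+E2 with E2 and that of Dex with untreated cells both isolate Dex: 9 sites were above 0 in both and 10 below, against 25.0% and 29.2% of all, and 0 of 28 passed 1.5-fold in both in either direction, against 3.64% and 1.11% of all.

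**Figure D4:**
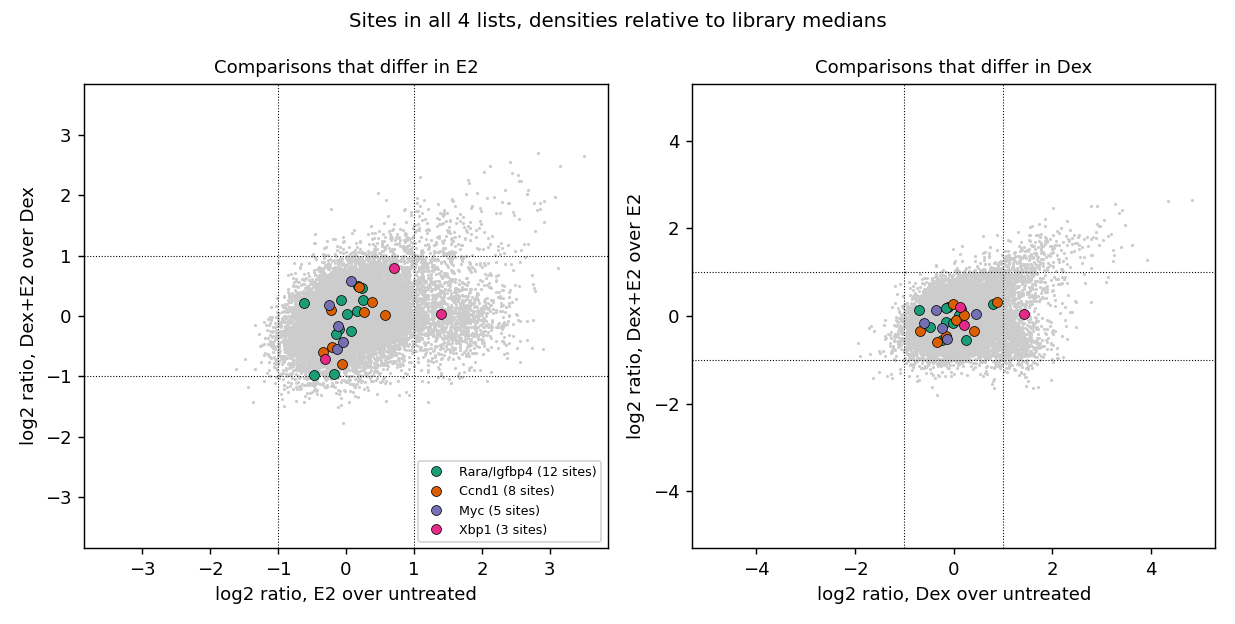
Log2 ratios of MaxD relative to library medians in the comparisons that differ in E2 (left) or in Dex (right), without the other hormone on the x axis and with it on the y axis, for the 28 estrogen target sites in all lists (coloured by window) over the 20687 sites of the genome (grey), with dotted lines at 2-fold. The coloured points lie within the grey cloud, with Xbp1 site 7 at 0.71 and 0.79 on the left and Xbp1 site 6 at 1.40 on the left and 1.42 on the right x axis.

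Window medians of these ratios rest on 12, 8, 5 and 3 sites. For Dex+E2 over Dex the median log2 was 0.06 in the Rara/Igfbp4, 0.04 in the Ccnd1, −0.17 in the Myc and 0.03 in the Xbp1 window. For E2 over untreated the medians were −0.03, 0.07, −0.11 and 0.71, the last drawn from Xbp1 sites 3, 6 and 7. The sites within a window spread more widely than the window medians, from −0.98 at site 7 to 0.49 at site 14 of the Rara/Igfbp4 window for Dex+E2 over Dex.

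For the densest site of each window, the most similar site of the genome over the 4 libraries was sought among the sites in all lists of like mean level, by Euclidean distance of the centred log2 values. For the Rara/Igfbp4 site 14 it was chr16:8845904-8846749 (distance 0.0143 among 3954 candidates with a median distance of 0.519), with a MaxD of 53.3, 24.0, 20.6 and 35.8. For the Ccnd1 site 14 it was chr4:136787102-136788378 (0.0212 among 13581), for the Myc site 10 chr3:84385579-84387094 (0.0253 among 9068) and for the Xbp1 site 7 chr4:9352628-9353394 (0.0542 among 10997). The last had a MaxD of 23.0, 12.2, 12.8 and 21.3, close to level between untreated and Dex+E2 as at Xbp1. That likeness follows from the choice by these same values.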

How the data were processed

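DNase-seq of 7438 cells was available as 1 list of hypersensitive regions per condition (untreated, Dex, E2, Dex+E2), grouped by the treatment in the labels. Per the submitters' processing notes the build is mm9 and CASAVA 1.8 was used. Which aligner and region caller served is not given in the sources used here. Each list belongs to 1 library. Per the file headers each region carries MaxD and AveD, the maximum and average density of tags, a signal that the authors deposited with no statement of its scaling, and a Z score and a p-value that the authors deposited with no statement of their background, neither of which was compared here. Every maximum density was a whole number of tags within 0.02, with the value of 1 tag inferred from the spacing of these same densities. The tag counts and intervals rest on that step being 1 tag.

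Windows came from the description of the loci. The members and lists were chosen with earlier results of these data known. Regions overlapping by at least 1 bp or touching were joined, and a site has the MaxD and AveD of its densest region. Ratios were divided by library medians over the 20687 sites in all 4 lists, because the common depth that would allow a direct comparison is not stated. With 1 library per condition no p-value was computed. Intervals are exact (Poisson for a density, Clopper-Pearson for a ratio) at 95%, treat tags as independent and cover counting error only. Sites in all 4 lists with a MaxD of at least 20 in 1 or more libraries were to be given in full. So were sites missing from a list with at least 10 in 1 or more libraries, and the densest site of each window. The others were added as values. The densest site of each window in all lists was matched to the nearest sites of the genome of like mean level. Alternatives were the scaling, the density measure, joining within 150 bp, the regions behind the medians, limits of 1.5-fold and 4-fold, and equal list lengths. Functions were tested on simulated data. The tools were SciPy 1.17.1 for intervals, Matplotlib 3.10.9 for figures, pandas 2.3.3 and NumPy 2.4.6 for tables, under Python 3.11.15.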

Additional observations from a re-analysis of the deposited data

How the results depend on the processing

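As deposited, without the library medians, the median log2 ratios of the 28 sites over untreated were −1.05 (Dex), −1.61 (E2) and −1.05 (Dex+E2), and the median was 0.56 for Dex+E2 over E2. Over all 20687 sites the same medians were −1.04, −1.56, −0.95 and 0.56, so the offset was shared by the genome. On that scale 0 of the 28 sites were at least 2-fold higher and 15, 25 and 15 lower over untreated. By average density 2 sites were 2-fold higher for E2 over untreated, and 1 was higher and 1 lower for Dex+E2 over Dex. With regions within 150 bp joined, 1 site was lower for Dex+E2 over Dex. With equal list lengths, chosen for these counts after seeing the data, 0 sites were higher in each comparison over untreated. A 1.5-fold limit gave 3 higher and 3 lower sites over untreated with Dex, 2 and 1 with E2 and 3 and 3 with Dex+E2, 2 and 5 for Dex+E2 over Dex, and 1 lower for Dex+E2 over E2. A 4-fold limit gave 0 higher in each comparison over untreated. Shares of all 20687 sites are not given for these alternative counts, so the counts do not set the estrogen targets apart from the genome. The causes were not tested. The number of sites and of sites per list stayed within 1.5 times under joining and under equal lengths. Of 125 ratios at the 25 densest sites in all lists, 96 moved beyond their counting interval as deposited, 8 by average density and 0 with medians that leave out regions at 0.8 or more of untreated in every hormone library. The Pgr sites rest on summits of 19 to 33 tags, and the intervals of both ratios that can be formed there include 1. No paired analysis was possible because each condition has 1 library.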

Other observations

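Sites just outside the windows show what the window limits leave out. The nearest site past the Myc window, chr15:61910062-61911777, 10.1 kb beyond its edge, was denser than any of the 66, with a MaxD of 263 untreated, 113 with Dex, 79.2 with E2 and 121 with Dex+E2. Just past the Ccnd1 window, chr7:152186752-152188444 had 47.2, 17.1, 9.40 and 17.7, against 16.3, 8.82 and 8.62 at the last site inside, which was not listed with E2. At the Rara/Igfbp4 window the site 0.113 kb beyond the edge, chr11:98960113-98960781, had 14.0 untreated and 7.0 with E2. The nearest sites outside the Pgr window were in the untreated list only, at 5.10 and 5.61, so the sparse listing of the Pgr window went on beyond its limits on both sides.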
